A study of Saccharomyces cerevisiae with 8 samples.

Results

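Chromatin accessibility was described at the 10 *Saccharomyces cerevisiae* genes *LEU1*, *LEU2*, *LEU4*, *LEU9*, *BAT1*, *BAT2*, *ILV2*, *ILV3*, *ILV5* and *ILV6*, which encode enzymes of leucine, isoleucine and valine synthesis. They are 10 of the 6002 protein-coding genes of the nuclear genome. For each gene the region from 800 bp upstream of its coding start to its end was taken in the sacCer3 assembly, and a gene was said to have a peak in a library when a peak of that library overlapped the region by at least 1 bp. *LEU2* was kept apart, because its only copy in the episome strains sits on the vector, which leaves 9 genes on the chromosomes.

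The libraries come from ATAC-seq, an assay that inserts sequencing adapters with a transposase where DNA is exposed, in 4 haploid strains with 2 clones each. All strains derive from BY4741, a laboratory strain with deletions at *HIS3*, *LEU2*, *MET15* and *URA3*, and carry a synthetic human *HPRT1* locus or *HPRT1R*, the same sequence reversed but not complemented. The HPRT1 episome and HPRT1R episome strains keep the locus on a yeast artificial chromosome whose vector holds *LEU2*, and were grown in SC-Leu, a synthetic medium without leucine. The HPRT1 integrated and HPRT1R integrated strains hold the locus on chromosome XI and were grown in YPD, a rich medium with amino acids from yeast extract and peptone. All cultures were grown at 30 °C, diluted to an optical density of 0.1 and taken about 6 h later at about 0.6. The integrated strains, with *LEU2* deleted and no vector peak called, were taken to have no copy of *LEU2*. Medium, the vector with its *LEU2* and the place of the locus changed together, so their parts in any difference cannot be told apart.

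Isoleucine and valine are made in parallel in the mitochondrion by the same enzymes, acetohydroxyacid synthase (*ILV2*, with its regulatory subunit *ILV6*), acetohydroxyacid reductoisomerase (*ILV5*) and dihydroxyacid dehydratase (*ILV3*). Leucine branches off the valine route through α-isopropylmalate synthase (*LEU4* and its paralog *LEU9*), isopropylmalate isomerase (*LEU1*) and isopropylmalate dehydrogenase (*LEU2*). Transaminases of the mitochondrion (*BAT1*) and the cytosol (*BAT2*) carry out the last step of all 3 routes. Many of these genes are controlled by Leu3, a zinc-cluster factor that activates transcription when it binds α-isopropylmalate, and by Gcn4, the activator of the general response to amino acid starvation.

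Each library has its own peak list of 1029 to 1337 peaks, of which 988 to 1284 lay on the nuclear chromosomes. A peak's height is given as its fold enrichment, the fragments at its summit over the local background, each plus 1. Summit fragments and background could be solved for in 99.3% to 99.6% of the peaks and in all 48 peaks at the 9 genes. The genome-wide background was 4.97 to 6.93 fragments per base, and the smallest peaks called against it held 13 to 16 fragments at a fold enrichment of 2.14 to 2.34. A region without a peak is one in which no summit passed the caller's threshold, which is not the same as closed chromatin, and read totals were not used here.

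The 9 chromosomal genes had more peaks in the SC-Leu libraries by count, although the counts touched. In SC-Leu, 5 and 6 genes had a peak in the HPRT1 episome libraries and 7 and 5 in the HPRT1R episome libraries. In YPD, 4 and 3 genes had one in the HPRT1 integrated libraries and 5 and 5 in the HPRT1R integrated libraries. Over all genes the count leaned the other way in 3 of the 4 YPD libraries, with peaks at 24.2% to 25.2% of genes in SC-Leu and at 23.7% to 30.2% in YPD. *LEU4* and *ILV6* had a peak in all 8 libraries, which is 22.2% of the 9 genes against a background of 13.2% of all genes. *LEU1* alone had none, or 11.1% against 57.7% of all genes. The regions of the 9 genes have a median length of 2558 bp against 2000 bp for all genes, and the part of region length in these shares was not tested.

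**Figure D1:**
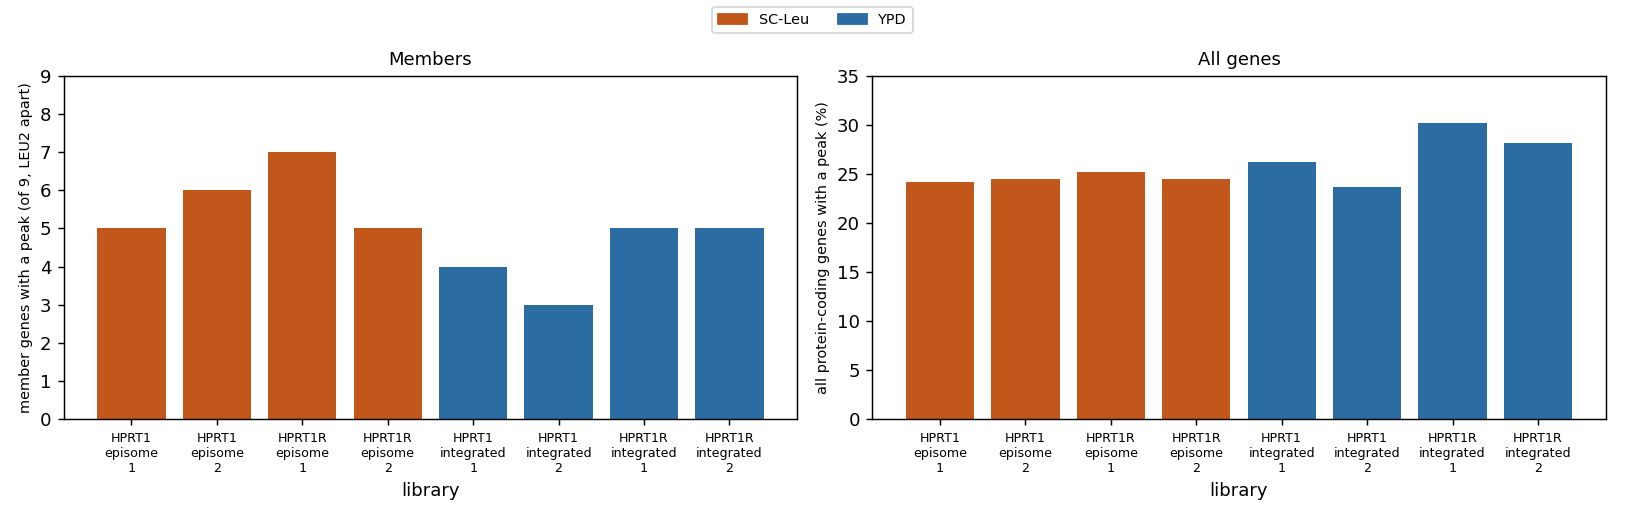
The left panel shows how many of the 9 chromosomal genes had a peak in each of the 8 libraries, and the right panel the percentage of all 6002 protein-coding genes with one (bars, 1 per library, coloured by medium). The members range from 5 to 7 in SC-Leu and from 3 to 5 in YPD, while the share of all genes is highest in the HPRT1R integrated libraries, at 30.2% and 28.2%.

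The 48 peaks at the 9 genes were of modest height. Their fold enrichment ran from 2.34 to 4.83 with a median of 3.12, and their summits held 15 to 31 fragments. Only 15 of them exceeded the median fold enrichment of the nuclear peaks of their own library. Summits lay upstream of the coding start in 38 peaks, inside the coding sequence in 7 and past the gene's end in 3, and the median upstream summit was 311 bp from the coding start.

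**Figure D2:**
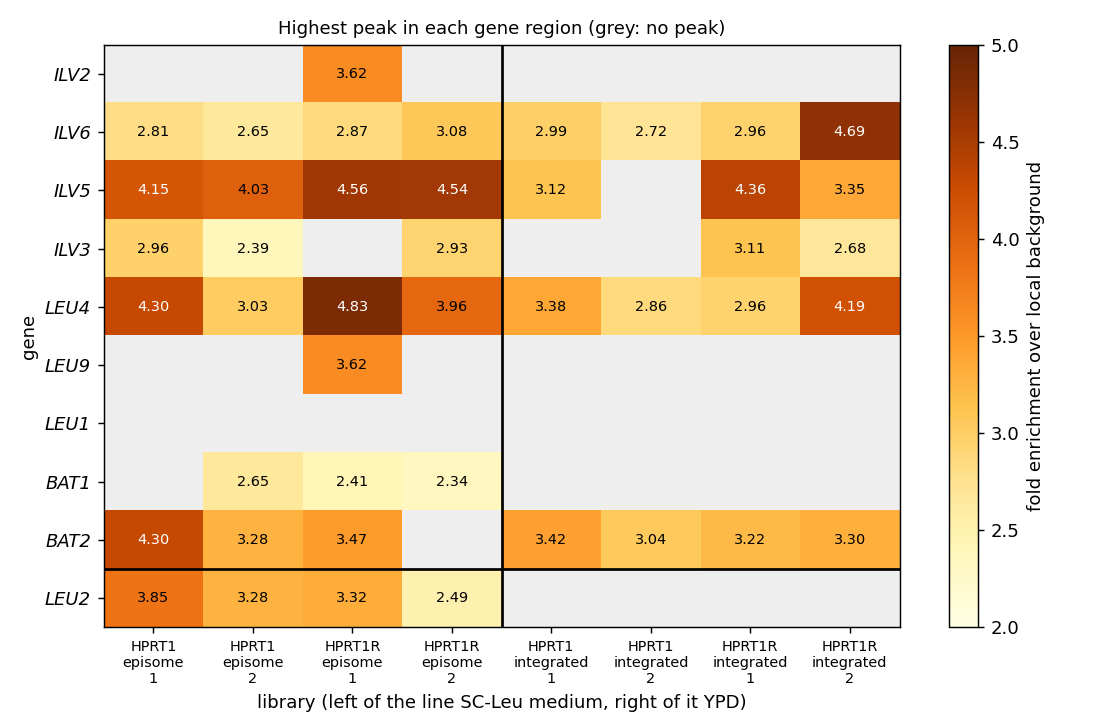
Fold enrichment over the local background of the highest peak in each gene region (rows) in each library (columns), written in the cell and shown as colour, with grey where no peak was called. *LEU2*, under the horizontal line, *BAT1*, *LEU9* and *ILV2* have peaks only left of the vertical line, in SC-Leu. *LEU9* and *ILV2* have theirs in HPRT1R episome replicate 1 alone. The share of all genes with peaks only in SC-Leu was not counted. *LEU4* and *ILV6* fill their rows.

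No gene separated the media in presence of a peak after adjustment. By Fisher's exact test (two-sided) with Benjamini-Hochberg adjustment over 6002 genes, 0 genes (0%) had an adjusted p under 0.05 and 8 had an unadjusted p under 0.05. The smallest p that 4 libraries against 4 can give is 0.0286, and its adjusted value over all genes is 1. The test treats the clones of a strain as independent, so it compares counts of libraries, with only 2 strains in each medium.

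*ILV5*, the reductoisomerase, had peaks both upstream and inside its coding sequence, and passed no adjusted test between the media. Its upstream peak was present in 7 of 8 libraries. In SC-Leu the fold enrichment of that peak was 4.15 and 4.03 in the HPRT1 episome libraries and 4.56 and 4.54 in the HPRT1R episome libraries. In YPD it was 3.12 in HPRT1 integrated replicate 1 and 4.36 and 3.35 in the HPRT1R integrated libraries, with no peak in HPRT1 integrated replicate 2. The SC-Leu heights lay close together, and 1 of the YPD heights fell among them.

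The upstream peak of *ILV5* spanned 522 and 393 bp in the HPRT1 episome libraries and 616 and 471 bp in the HPRT1R episome libraries. In YPD it spanned 215 bp in HPRT1 integrated replicate 1 and 196 and 246 bp in the HPRT1R integrated libraries. Every SC-Leu width exceeded every YPD width. Of the 887 genes with an upstream peak in at least 7 libraries, 10 (1.13%) had this order and 42 (4.74%) had the reverse order. Over those 887 genes the median width was 387 bp in SC-Leu and 407.5 bp in YPD. Widths were compared after the peaks had been seen and were not tested, they come from 3 YPD libraries, and a width depends on where the signal crosses the caller's threshold.

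The upstream peaks of *ILV5* shared 196 bp in the 7 libraries, chrXII:839475-839670 in sacCer3, between *ILV5* and the divergent gene *ATG33*, whose coding sequences are 1067 bp apart. The stretch is shown because it holds letters of both regulators, and all 7 summits, 224 to 313 bp upstream of the coding start, lie in it. It is read in the direction of *ILV5*, from the reverse strand, with the matches to CCGGNNCCGG (Leu3), TGACTCA (Gcn4) and the reverse complement of TGACTC in capitals.
ILV5 shared upstream stretch: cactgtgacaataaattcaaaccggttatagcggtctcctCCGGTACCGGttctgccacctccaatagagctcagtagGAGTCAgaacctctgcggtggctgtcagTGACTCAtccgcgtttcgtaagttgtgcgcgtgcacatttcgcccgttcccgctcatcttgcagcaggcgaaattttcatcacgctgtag

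Inside the coding sequence of *ILV5*, summits were called in every SC-Leu library and in no YPD library. They lay 590 and 809 bp after the coding start in HPRT1 episome replicates 1 and 2, with fold enrichments of 2.96 and 3.15. HPRT1R episome replicate 1 had summits at 407 and 900 bp, with fold enrichments of 2.55 and 3.23, and replicate 2 had one at 753 bp with 3.08. These peaks held 16 to 24 summit fragments, not far above the smallest that could be called. A coding summit was called in at least 1 library at 523 of the 6002 genes. *ILV5* was the only 1 of 6002 genes (0.0167%) with a coding summit in 4 of 4 SC-Leu and 0 of 4 YPD libraries, and 2 genes had the reverse. Its p by Fisher's exact test was 0.0286 and its adjusted p was 1. This count was made after the peaks had been seen.

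**Figure D3:**
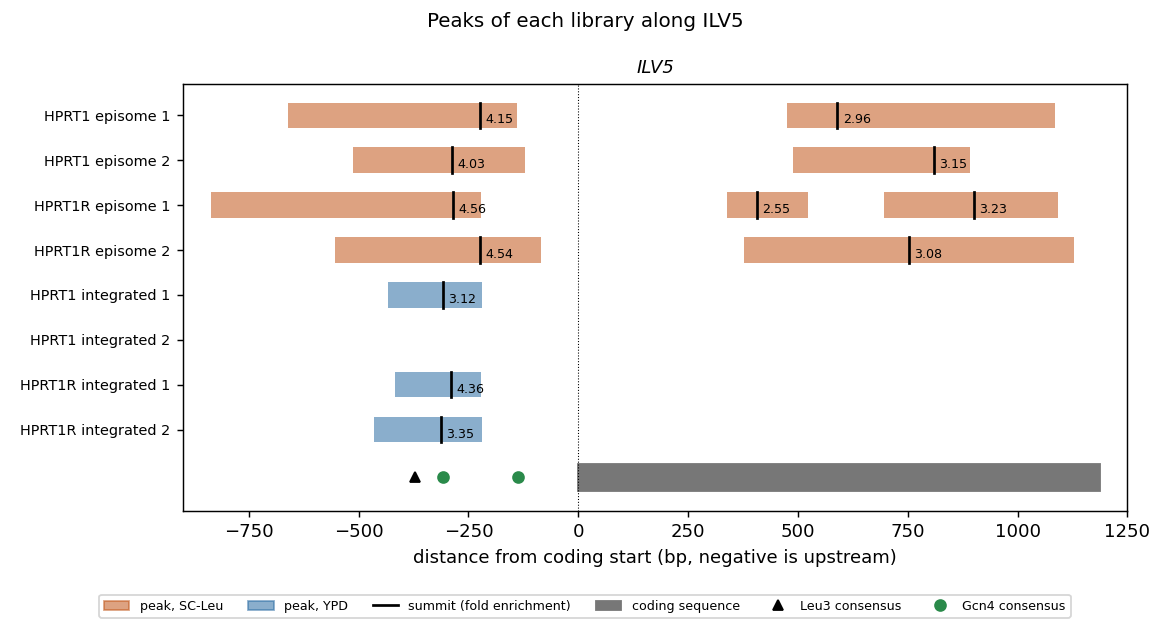
Peaks (bars), their summits (black lines, with fold enrichment beside them) and the coding sequence of *ILV5* in each library. Positions are distances from the coding start in bp. The triangle marks the centre of the CCGGNNCCGG match (Leu3) and the circles those of the TGACTCA matches (Gcn4). The shorter TGACTC match is not drawn. The SC-Leu libraries have broad upstream peaks and further peaks with summits 407 to 900 bp into the coding sequence, where the YPD libraries have none.

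The genes for acetohydroxyacid synthase gave different pictures. *ILV2*, the catalytic subunit, had a single peak in all 8 libraries together, in HPRT1R episome replicate 1, with 23 fragments, a fold enrichment of 3.62 and its summit 411 bp upstream. *ILV6*, the regulatory subunit, had a peak in every library. Its highest peak had a fold enrichment of 2.81 and 2.65 in the HPRT1 episome libraries and 2.87 and 3.08 in the HPRT1R episome libraries. In YPD the values were 2.99 and 2.72 in the HPRT1 integrated libraries and 2.96 and 4.69 in the HPRT1R integrated libraries. The 4 values of each medium overlapped, and 4.69 stood apart from the rest.

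The peaks of *ILV6* were of 2 kinds. Upstream summits, 62 to 288 bp from the coding start, were called in 2 SC-Leu and 4 YPD libraries, and HPRT1R episome replicate 1 had a summit 52 bp into the coding sequence. Summits around the gene's end, 901 to 1084 bp after the coding start, were called in 4 libraries. In HPRT1 episome replicate 2, HPRT1R episome replicate 2 and HPRT1 integrated replicate 1 the peak at the end was the highest or the only one. The highest peak of *ILV6* therefore does not mark 1 element in all libraries.

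The stretch that the upstream peaks of 6 libraries shared at *ILV6* is chrIII:105671-105889 (219 bp). *STP22*, a gene on the same strand, ends 147 bp before *ILV6* starts, so most of the stretch lies in the end of the *STP22* coding sequence. It is shown in the direction of *ILV6*, from the reverse strand, with the Gcn4 letters TGACTCA in capitals, which lay under a peak in 7 libraries, 3 of SC-Leu and 4 of YPD.
ILV6 shared upstream stretch: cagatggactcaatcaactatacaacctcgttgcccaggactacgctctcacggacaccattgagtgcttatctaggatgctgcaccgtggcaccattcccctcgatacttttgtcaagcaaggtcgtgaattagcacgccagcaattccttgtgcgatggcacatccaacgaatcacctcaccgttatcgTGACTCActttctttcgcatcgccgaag

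*ILV3*, the dehydratase, had low and scattered peaks in 5 libraries. In SC-Leu its fold enrichment was 2.96 and 2.39 in the HPRT1 episome libraries and 2.93 in HPRT1R episome replicate 2. In YPD it was 3.11 and 2.68 in the HPRT1R integrated libraries, and the HPRT1 integrated libraries had no peak. Summits ran from 206 to 812 bp upstream, and no base was covered by all 5 peaks. *ESS1*, a prolyl isomerase gene on the same strand, ends 312 bp upstream, so the farther summits lie in its coding sequence.

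*LEU4*, the main α-isopropylmalate synthase and the first enzyme of the leucine branch, had the highest peak of the set. Its fold enrichment in SC-Leu was 4.30 and 3.03 in the HPRT1 episome libraries and 4.83 and 3.96 in the HPRT1R episome libraries. In YPD it was 3.38 and 2.86 in the HPRT1 integrated libraries and 2.96 and 4.19 in the HPRT1R integrated libraries. The highest value lay in SC-Leu and the lowest in YPD, but the groups overlapped. Summits lay 366 to 778 bp upstream, with the SC-Leu summits within 485 to 610 bp and the YPD summits on both sides of that range.

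The 8 peaks of *LEU4* shared chrXIV:427198-427439 (242 bp), which lies in the 980 bp between *LEU4* and the divergent gene *MET4*, the activator of sulfur amino acid genes, so the peak cannot be assigned to either promoter. The stretch, shown in the direction of *LEU4* from the reverse strand, holds no match to the Leu3 or Gcn4 letters. The single TGACTCA upstream of *LEU4*, 101 bp from its coding start, lay under no peak in any library.
LEU4 shared upstream stretch: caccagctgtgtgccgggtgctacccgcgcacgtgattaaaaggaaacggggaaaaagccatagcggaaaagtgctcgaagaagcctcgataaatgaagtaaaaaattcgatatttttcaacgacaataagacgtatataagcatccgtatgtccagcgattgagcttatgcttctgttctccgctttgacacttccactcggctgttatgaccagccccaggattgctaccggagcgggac

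Of the rest of the leucine branch, *LEU9*, the second α-isopropylmalate synthase, had a peak only in HPRT1R episome replicate 1. It held 23 fragments at a fold enrichment of 3.62, with its summit 277 bp upstream. *LEU1*, the isomerase, had no peak in any library, although its upstream region holds letters of both regulators. *PMA1*, the plasma membrane proton pump gene on the same strand, ends 1257 bp before *LEU1*, so no other coding sequence lies in the upstream region. With *ILV2*, *LEU9* rests on 1 library, and without HPRT1R episome replicate 1 the genes with a peak in any library numbered 6 of 9 instead of 8.

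The transaminase genes differed from each other. *BAT1*, the mitochondrial enzyme, had an upstream peak in 3 of 4 SC-Leu libraries and in no YPD library. Its fold enrichment was 2.65 in HPRT1 episome replicate 2 and 2.41 and 2.34 in the HPRT1R episome libraries, on 15 to 20 fragments, which is near the smallest that could be called. In all, 14 genes (0.233%) had a peak in at least 3 SC-Leu and no YPD library, against 39 genes in the other direction, and the p of *BAT1* by Fisher's exact test was 0.143. Its lead in SC-Leu fell from 3 libraries to 1 with lists of equal length, and to 0 at −log10 q of at least 5. The coding sequences of *BAT1* and the divergent gene *SET5* are 1046 bp apart, and the summits, 198 to 349 bp upstream, lie nearer to *BAT1*.

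*BAT2*, the cytosolic enzyme, had an upstream peak in 7 libraries. In SC-Leu its fold enrichment was 4.30 and 3.28 in the HPRT1 episome libraries and 3.47 in HPRT1R episome replicate 1, with no peak in HPRT1R episome replicate 2. In YPD it was 3.42 and 3.04 in the HPRT1 integrated libraries and 3.22 and 3.30 in the HPRT1R integrated libraries. Heights overlapped, whereas widths did not. The peak spanned 156 to 206 bp in the SC-Leu libraries and 260 to 338 bp in the YPD libraries, which makes *BAT2* 1 of the 42 genes (4.74%) with the narrower peak in SC-Leu.

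The 7 peaks of *BAT2* shared chrX:705312-705467 (156 bp), all of it in the 471 bp between *BAT2* and *HMS2*. The 3 peaks of *BAT1* shared chrVIII:517181-517323 (143 bp). Both are shown in the direction of the gene, on the forward strand, to set the transaminase genes side by side, with the match of *BAT2* to CCGNNNNCGG, a looser form of the Leu3 letters, in capitals. The *BAT1* stretch holds no match.
BAT2 shared upstream stretch: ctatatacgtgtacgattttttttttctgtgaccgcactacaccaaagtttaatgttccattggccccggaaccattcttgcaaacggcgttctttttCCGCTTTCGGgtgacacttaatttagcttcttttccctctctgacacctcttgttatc
BAT1 shared upstream stretch: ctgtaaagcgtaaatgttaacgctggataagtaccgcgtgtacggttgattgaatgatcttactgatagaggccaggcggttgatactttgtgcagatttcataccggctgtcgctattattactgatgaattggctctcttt

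**Figure D4:**
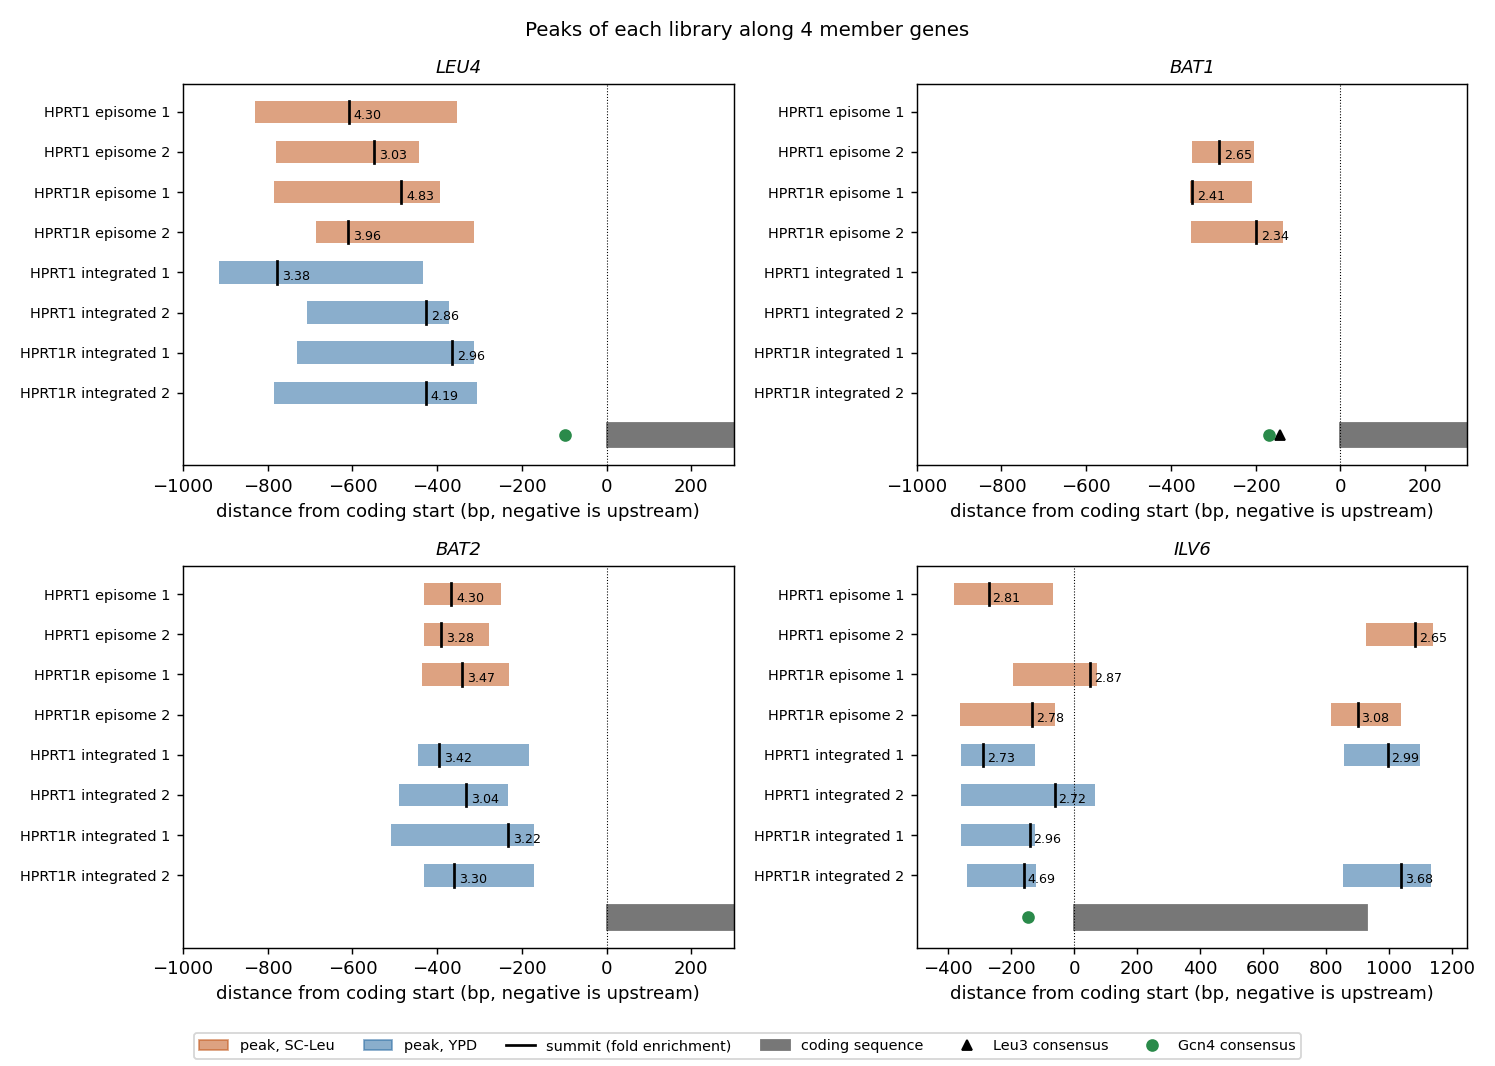
Peaks (bars), summits (black lines, with fold enrichment beside them) and coding sequence of *LEU4*, *BAT1*, *BAT2* and *ILV6* in each library. Positions are distances from the coding start in bp. Triangles mark the centres of CCGGNNCCGG matches (Leu3) and circles those of TGACTCA matches (Gcn4). The looser Leu3 match of *BAT2* is not drawn. The *LEU4* peaks lie farthest upstream and away from its Gcn4 match, the *BAT1* peaks are confined to 3 SC-Leu libraries, and the *ILV6* peaks fall at both ends of the gene.

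The letters of Leu3 and Gcn4 were frequent upstream of these genes, but peaks lay over only some of them. CCGGNNCCGG, searched on both strands in the 800 bp upstream, matched at 4 of the 9 genes (*LEU1*, *BAT1*, *ILV2* and *ILV5*) and at 0.467% of all genes. CCGNNNNCGG, which includes all matches of the stricter form, matched at 6 of 9 genes and at 5.2% of all genes. TGACTCA matched at 7 of 9 genes, all but *BAT2* and *ILV2*, and at 6.3% of all genes, and the shorter TGACTC at 7 of 9 and at 20.5%. These are matches of letters and say nothing of binding in these cells.

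The 4 strict Leu3 matches stood in different positions relative to the peaks. That of *ILV5*, 377 bp upstream, was covered by a peak in 7 libraries, 4 of SC-Leu and 3 of YPD, as was its TGACTCA 311 bp upstream, while a further TGACTCA 140 bp upstream was covered in 2 SC-Leu and 0 YPD libraries. Those of *BAT1*, 147 bp upstream, and *ILV2*, 468 bp upstream, were each covered in 1 SC-Leu library, and that of *LEU1*, 217 bp upstream, in none. The looser match of *BAT2*, 334 bp upstream, was covered in 7 libraries. The 4 strict matches are shown with 15 bases on each side, in the direction of the gene, because 3 of them share the 10 bases in capitals while only 1 of those 3 lay under a peak in most libraries. They lie at chrXII:839606-839645 (*ILV5*, reverse strand), chrVIII:517370-517409 (*BAT1*, forward strand), chrXIII:483601-483640 (*ILV2*, forward strand) and chrVII:478845-478884 (*LEU1*, reverse strand).
ILV5 Leu3 match: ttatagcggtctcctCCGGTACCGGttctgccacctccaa
BAT1 Leu3 match: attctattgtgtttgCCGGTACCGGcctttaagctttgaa
ILV2 Leu3 match: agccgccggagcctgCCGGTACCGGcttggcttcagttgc
LEU1 Leu3 match: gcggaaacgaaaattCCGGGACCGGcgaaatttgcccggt

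At *LEU2*, kept apart, peaks were called only in the libraries of strains with the vector. The highest peak in its region had a fold enrichment of 3.85 and 3.28 in the HPRT1 episome libraries and 3.32 and 2.49 in the HPRT1R episome libraries, and no YPD library had one. With *STP1* and *BUD22* it was 1 of 3 genes (0.05%) with a peak in 4 of 4 SC-Leu and 0 of 4 YPD libraries, while 5 genes (0.0833%) had the reverse. The chromosomal *LEU2* is deleted in these strains, so fragments of the vector copy that align equally well to chromosome III can be placed there. The vector itself had 3 to 4 peaks in each SC-Leu library and 0 in the YPD libraries, but *LEU2* was not placed on the vector here, so whether these peaks cover it was not tested. *HIS3*, *MET15* and *URA3*, the other deleted markers, had no peak in any library, which leaves the deletions at *HIS3*, *MET15* and *URA3* unchecked by these lists.

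The height of the highest peak could be tested for the genes with a peak in all 8 libraries, 793 in number, among them *LEU4* and *ILV6*. In limma on log2 fold enrichment, 4 genes (0.504%) were lower in SC-Leu and 0 (0%) were higher at an adjusted p under 0.05. Over the 793 genes the median difference, SC-Leu minus YPD, was −0.14 on the log2 scale, with 17.3% of genes higher in SC-Leu. *LEU4* was higher in SC-Leu by 0.26 (SE 0.16, limma adjusted p = 0.469), and by 0.40 (SE 0.14, limma adjusted p = 0.428) once each library was centred on its median. Only 2 of the 793 genes (0.252%) had a larger positive difference than *LEU4*, and its own difference did not pass the test. The peak behind this rank lies between *LEU4* and *MET4* and cannot be assigned to either. *ILV6* differed by −0.19 (SE 0.16, limma adjusted p = 0.604), or −0.06 after centring. The difference between media was not shown to depend on the locus for either gene (limma interaction, adjusted p = 0.949 for *LEU4* and 0.885 for *ILV6*).

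The genes with the most similar profile of fold enrichment over the 8 libraries, by the root mean square difference on the log2 scale among the 793 genes tested, were *TRP3* for *LEU4* (0.187) and *YKR075C* for *ILV6* (0.143).

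A further 10 genes related to the pathway were regulators, permeases, mitochondrial carriers and enzymes. Of these, 5 (50%, against 13.2% of all genes) had a peak in all 8 libraries and 3 (30%, against 57.7%) had none. The regulators split. *GCN4* had a high peak in every library, with a fold enrichment of 3.78 to 5.42 in SC-Leu and 5.07 to 5.45 in YPD. That peak reached into the region while its summit lay 895 to 1485 bp upstream. The coding sequences of *GCN4* and the divergent gene *YEL008W* are 748 bp apart, so these summits lie past the start of *YEL008W*. Whether the peak belongs to *GCN4* was not tested. *LEU3* had no peak in any library, nor had *ILV1*, the threonine deaminase that feeds the isoleucine route, or *LEU5*, a mitochondrial carrier gene. *STP1*, an activator of amino acid permease genes, had peaks in 4 SC-Leu and 0 YPD libraries, at 2.52 to 4.69. Their summits were scattered from 897 bp upstream to 57 bp inside the gene. *MRPL28*, on the same strand, ends 299 bp before *STP1* starts, and whether the farther peaks belong to it was not tested.

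The permease genes were open in both media and did not pass the test. For the branched-chain amino acid permease *BAP2* the fold enrichment was 2.46 to 3.40 in SC-Leu and 2.91 to 4.26 in YPD. The difference was −0.35 (SE 0.16, limma adjusted p = 0.324), and −0.21 after centring. In HPRT1R integrated replicate 1 its highest peak, at 3.71, had its summit past the gene's end, 2412 bp after the coding start. The upstream peak there was at 3.59, and with summits in the region the difference was −0.33. *BAP3* was at 3.91 to 4.83 and 4.55 to 5.72, and *TAT1* at 2.93 to 4.22 and 3.43 to 4.83, in SC-Leu and YPD (differences −0.26 and −0.23, or −0.12 and −0.09 after centring). *GDH1*, a glutamate dehydrogenase gene, was at 2.81 to 3.91 in SC-Leu and 3.57 to 4.67 in YPD. Its difference was −0.35 (SE 0.15, limma adjusted p = 0.296), and −0.22 after centring (limma adjusted p = 0.822). *GDH1* and *BAP2* hold a match to CCGGNNCCGG upstream, and *OAC1* holds one to the looser CCGNNNNCGG alone. *OAC1*, a mitochondrial oxaloacetate carrier gene, had a peak in 7 libraries at 2.80 to 3.55.

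Outside the list, and named after its values were seen, *AGP1* was 1 of the 4 genes called. It encodes a broad amino acid permease that also takes up leucine, isoleucine and valine. Its peak had a fold enrichment of 4.15 and 2.90 in the HPRT1 episome libraries and 4.22 and 3.96 in the HPRT1R episome libraries, against 5.46 and 5.15 in the HPRT1 integrated libraries and 7.01 and 7.37 in the HPRT1R integrated libraries. All 4 YPD values lay above all 4 SC-Leu values. The difference was −0.71 on the log2 scale (SE 0.16, limma adjusted p = 0.0192), and −0.57 (limma adjusted p = 0.0386) after centring. The call was lost without HPRT1 episome replicate 2 (limma adjusted p = 0.167), HPRT1R episome replicate 2 (0.0717), HPRT1R integrated replicate 1 (0.155) or HPRT1R integrated replicate 2 (0.143), where the differences were −0.59, −0.74, −0.65 and −0.63. It was also lost in the exact permutation test over the 793 genes (adjusted p = 0.349). The divergent gene *KCC4*, also called, has the same peak.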

How the data were processed

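Peak lists of 8 yeast ATAC-seq libraries were used. After trimming, the authors used Bowtie2 2.2.9 to align reads to sacCer3, to which the synthetic sequence and vector had been added, and called peaks in each library alone with MACS2 2.1.0 on whole fragments, with duplicates kept and no control. Shifting of reads to the transposase cut site is not given in the sources used here. The deposited lists give each summit's fold enrichment, a ratio, and −log10 p-values and −log10 q-values, all relative to the same library. Fold enrichment and p-value were solved for the summit fragments and local background, and accepted where −log10 p was matched within 0.001. A deeper library gives the caller more power, and no total counts were used.

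Coding starts, gene ends and sequences come from RefSeq's R64 assembly, which is sacCer3. Members and lists were chosen with earlier results of these data known. The genes named were the 10 members, 10 genes related to the pathway, the deleted markers, neighbours that share a member's peak and the genes of nearest profile. Presence was tested with Fisher's exact test and fold enrichment with limma 3.58.1 (R 4.3.3) on log2 values, with no pseudocount. Python 3.11.15, NumPy 2.4.6, SciPy 1.17.1 and matplotlib 3.10.9 were used. Scripts were tested on simulated data. Alternatives were stricter q thresholds, lists of equal length (1029), summits in place of overlaps, 500 or 1000 bp upstream, the upstream part alone, centring, summit fragments over the genome background, blocks for locus and replicate number, exact permutation, and each library left out. Summits in the coding sequence, peak widths and *AGP1* were added after the data had been seen.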

Additional observations from a re-analysis of the deposited data

Results flagged for a closer look

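The highest peak of *ILV6* in HPRT1R integrated replicate 2 had a fold enrichment of 4.69, far from the other 3 YPD libraries at 2.72 to 2.99. The 2.99, in HPRT1 integrated replicate 1, came from a peak at the gene's end. The median nuclear peak of HPRT1R integrated replicate 2 was also the highest, at 4.02 against 3.15 to 3.58 in the other libraries. The part of this in the 4.69 was not tested. Chance flags about 1 in 20 such groups, and 21 groups of 4 libraries were examined. The vector had 15 peaks over the 4 SC-Leu libraries and 0 over the 4 YPD libraries and was used in no comparison of the chromosomal genes. These peaks had 83 to 246 summit fragments over local backgrounds of 34.1 to 60.7.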

How the results depend on the processing

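Presence of a peak gave 0 genes at an adjusted p under 0.05 under the 17 alternatives run, which says nothing of stability: only 0 to 26 of the 6002 genes had an unadjusted p under 0.05, too few for the smallest p that these designs allow to pass. The difference in libraries with a peak changed sign for 1 gene, *BAT2*, which had 2 more SC-Leu than YPD libraries at −log10 q of at least 5. For *BAT1* the difference fell from 3 libraries to 1 with lists of equal length and to 0 at that threshold, where the mean number of the 9 genes with a peak was 3 in SC-Leu and 1.25 in YPD, and at 10 it was 0.25 and 0. With summits in the coding sequence alone, an alternative chosen after seeing the data, it was 1.5 and 0. The share of all genes with a peak in each library was not counted at these settings, so these means have no background. The number of genes whose fold enrichment passed limma's test was 0 at both q thresholds, 0 with coding summits alone, 0 in the exact permutation test (65 genes at an unadjusted p under 0.05), 2 when summits had to lie in the region, and 1 to 5 without each replicate, with 1 when HPRT1 episome replicate 2, HPRT1R episome replicate 2 or either HPRT1R integrated replicate was left out. The replicate block gave 4 genes, while the presence test with a replicate block gave 0 but cannot give a p under 0.0556 and so could call no gene. Deviations of same-numbered libraries in fold enrichment correlated at −0.038 to 0.057 over the 793 genes, so no pairing by number was seen there. This does not exclude a batch shared by libraries. *LEU4* stayed higher in SC-Leu under 17 alternatives, by 0.17 to 0.40 on the log2 scale with adjusted p from 0.365 to 0.801. *ILV6* stayed lower under 16, by −0.28 to −0.02 with adjusted p from 0.372 to 0.970. The blocks and the permutation test cannot change the estimate, so the sign was fixed there. Both genes also kept the main estimate with other upstream lengths. So did *LEU4* with summits in the region or the upstream part alone, and *ILV6* with lists of equal length. *LEU4* dropped out with lists of equal length, and *ILV6* with summits in the region or the upstream part alone. Both dropped out at the stricter q thresholds and with coding summits alone. The causes of the shifts between settings were not tested. The 9 genes' peaks rest on few summit fragments (15 to 31), so weak peaks such as those of *BAT1* may be missed or called by a difference of a few fragments.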
